A study of Homo sapiens with 5 samples.

Results

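The MYC, MAX and MXD network is a set of basic helix-loop-helix leucine zipper proteins that meet at the E-box, a short DNA element with the letters CACGTG. MYC and MYCN bind it as dimers with MAX and raise transcription of growth genes. The MXD proteins (MXD1, MXI1, MXD3 and MXD4), MNT and MGA also pair with MAX, and the MXD proteins and MNT bring SIN3 and histone deacetylases to the same element and lower transcription. MLX is a second common partner, which pairs with MXD1, MXD4 and MNT and with the glucose-sensing factors MLXIP and MLXIPL. MXD3 differs from the other MXD genes in being expressed in cycling cells rather than during differentiation.

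The network is described here through all probe sets that the platform annotation lists for its 10 genes, out of 19775 genes with a probe set of their own. The 10 genes have 36 probe sets, of which 26 passed a filter on dim signals, which lay at a signal of 27.2, the 40th percentile over the chip. The network was chosen by measured values, since MXD3 was the second highest of 14591 genes with miR-483-5p and the highest with miR-483-3p, each against the scrambled control. The differences of its 10 genes from the control are therefore given as a description, with no test.

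RNA came from the Ewing sarcoma line MHH-ES-1, grown with serum. All cells were transfected through a lipid reagent with a synthetic microRNA mimic at 50 nM and collected 48 h later. The mimic carried the 5p arm of miR-483 (2 arrays), the 3p arm (1 array) or a scrambled sequence (2 arrays), and each array was an Affymetrix 3' expression chip. The second array of each pair is labelled a repeat of the first, and no label says if it came from its own culture. All p-values therefore reflect only how these arrays vary, possibly for technical reasons.

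Median signals were between 39.2 and 44.9, and the arrays shared a trimmed mean of 150. Of 11 Ewing sarcoma markers, 10 had a probe set of their own and all 10 passed the filter, with summed signals of 20916 to 22641 with miR-483-5p, 21417 with miR-483-3p and 21943 to 23211 in the control. With miR-483-5p, 7 of the 10 had a lower mean (51.5% of all genes did), with a list median of -0.18, and 5 lay below both controls (22.2% of all genes). At an unadjusted p under 0.05, LIPI, NPY1R and PPP1R1A were lower and CCND1 was higher. With miR-483-3p, 8 of the 10 lay below both controls (35.4% of all genes), with a median of -0.14. The part of these markers in the results below was not tested. Of 11 markers of other cell types, 10 had a probe set and 2 passed, PECAM1 and DES, with sums of 277 to 329 with miR-483-5p, 321 with miR-483-3p and 287 to 303 in the control. DES, a muscle filament gene, had 43.9 and 24.8 with miR-483-5p and 46.9 with miR-483-3p, against 20.2 and 21.3 in the control. Both control signals and that of the second miR-483-5p array were under the filter. DES thus passed only through the first miR-483-5p array and the single miR-483-3p array, and nothing is read from its differences. The GAPDH 3'/5' probe set ratio, which increases as RNA degrades, equalled 1.09 and 1.10 for the miR-483-5p arrays, 1.06 for the miR-483-3p array and 1.02 and 0.996 for the scrambled ones. For ACTB the miR-483-5p arrays gave 1.18 and 1.073 and the miR-483-3p array 1.09, against 1.065 and 1.04 in the scrambled ones. Both ratios were thus higher in every mimic array than in both scrambled ones, by little for the second miR-483-5p array with ACTB. The part of either in the results below was not tested. Differences are given as log2(signal + 32), a scale that shrinks those of dim probe sets.

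The stretches before the starts of MXD3 and MXD4 are shown because their arrays differed from the control in opposite directions with miR-483-5p, and because the E-box is the element that the network binds. They are the 250 bases upstream of the RefSeq start on GRCh38.p14, given 5′ to 3′ on the minus strand, at chr5:177312753-177313002 for MXD3 and chr4:2262110-2262359 for MXD4. Capitals mark CACGTG, which reads the same on both strands.
MXD3: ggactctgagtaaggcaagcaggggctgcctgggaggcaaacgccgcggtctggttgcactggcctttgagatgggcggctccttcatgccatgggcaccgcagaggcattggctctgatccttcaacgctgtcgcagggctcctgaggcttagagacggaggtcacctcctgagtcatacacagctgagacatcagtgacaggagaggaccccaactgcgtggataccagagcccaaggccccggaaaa
MXD4: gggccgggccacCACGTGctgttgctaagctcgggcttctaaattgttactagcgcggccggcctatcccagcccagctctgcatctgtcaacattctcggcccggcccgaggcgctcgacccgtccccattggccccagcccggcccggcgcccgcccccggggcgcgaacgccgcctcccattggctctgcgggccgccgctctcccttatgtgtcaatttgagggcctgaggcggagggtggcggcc
CACGTG begins 238 bases before the MXD4 start and does not occur in the MXD3 window. Of the 9 network genes with a promoter in the RefSeq table, MNT and MLX also hold it, at 193 and 50 bases before the start, so 3 of 14 promoters have it. Among all 35116 promoters in the table, 6.34% have it in the same 250 bases. A match is a run of letters and not a binding site, and its absence here says nothing of the factors.

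MXD3, a MAX-binding repressor, was the member that stood apart, with a signal several times the control's under either arm of miR-483. Its only probe set, 221250_s_at, had signals of 95.6 and 97.7 with miR-483-5p and 130.7 with miR-483-3p, against 23.6 and 16.4 in the scrambled control. All 3 mimic arrays were far above both control arrays, and the miR-483-3p array was above both miR-483-5p arrays. The mean with miR-483-5p was 96.7 ± 1.48, against 20 ± 5.09 in the control (SD, n = 2 each). The ratio of linear signals to the control was 4.83 for miR-483-5p and 6.54 for miR-483-3p, and the log2 differences were 1.31 (SE 0.15) and 1.65 (SE 0.18). The 2 arms share these controls. The miR-483-5p arrays lay 0.34 (SE 0.18) under the miR-483-3p array on the log2 scale, a difference that rests on 1 array.

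Both MXD3 control signals were under the filter's 27.2, so the gene passed through its mimic arrays alone. No detection calls came with the values, and whether MXD3 lay above background in control cells is unknown. With a pseudocount of 1 in place of 32 the log2 differences were 2.24 for miR-483-5p and 2.67 for miR-483-3p, and with 100 they were 0.71 and 0.94. Leaving out any of the paired arrays left the difference for miR-483-5p between 1.21 and 1.41 and that for miR-483-3p between 1.55 and 1.75.

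**Figure D1:**
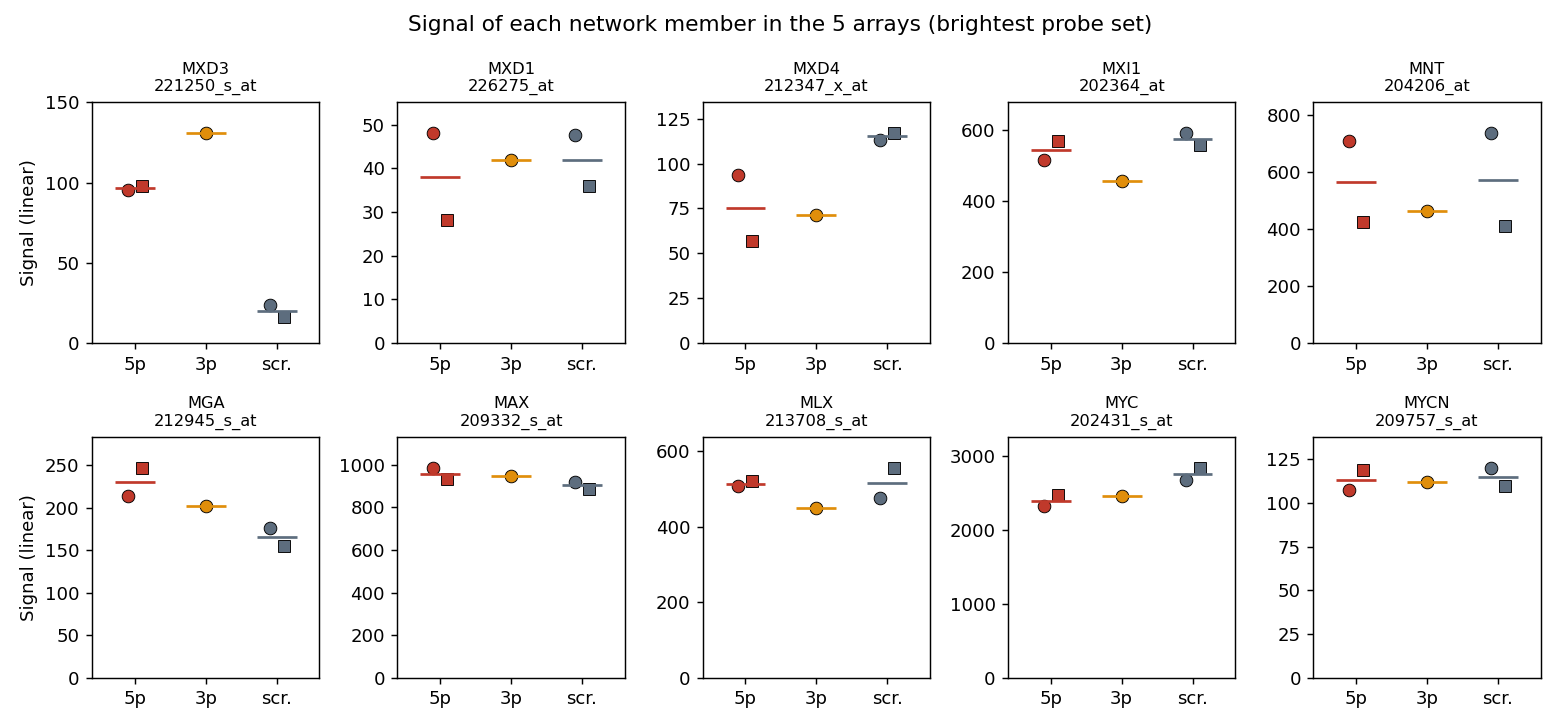
Signal on a linear axis from 0 for the brightest probe set of each network gene, with circles for first arrays, squares for repeats and bars for group means, and groups in the order miR-483-5p (5p), miR-483-3p (3p) and scrambled control (scr.). MXD3 has signals of 95.6 to 130.7 in the mimic arrays against 16.4 and 23.6 in the control. Within the pairs MNT follows first arrays against repeats, with 706.7 and 734.8 against 422.3 and 409. The miR-483-3p array, drawn as a first array, has 464.1, nearer the repeats.

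MXD3 lies on chromosome 5 among genes that did not show its pattern. In the RefSeq table it overlaps the end of PRELID1, a mitochondrial lipid transfer gene. PRELID1 had signals of 2074 and 2041 with miR-483-5p and 2246 with miR-483-3p, against 2401 and 2510 in the control, so all 3 mimic arrays were lower where those of MXD3 were higher. The 3 nearest genes with a probe set on each side were NSD1, RAB24 and PRELID1 on one side and LMAN2, RGS14 and SLC34A1 on the other. Their log2 differences ran from -0.41 for RGS14, a regulator of G protein signalling, to 0.30 for NSD1, a histone methyltransferase, with miR-483-5p. With miR-483-3p they ran from -0.34 for SLC34A1, a phosphate transporter, to -0.0083 for RAB24, a small GTPase. These are values of 1 probe set a gene. With the mean of the probe sets of a gene, SLC34A1 and NSD1 turned to 0.036 and 0.14 for miR-483-3p, and LMAN2, a cargo receptor gene, turned to -0.10 for miR-483-5p. The SLC34A1 and RGS14 signals were dim, at 24.2 to 92.4.

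**Figure D2:**
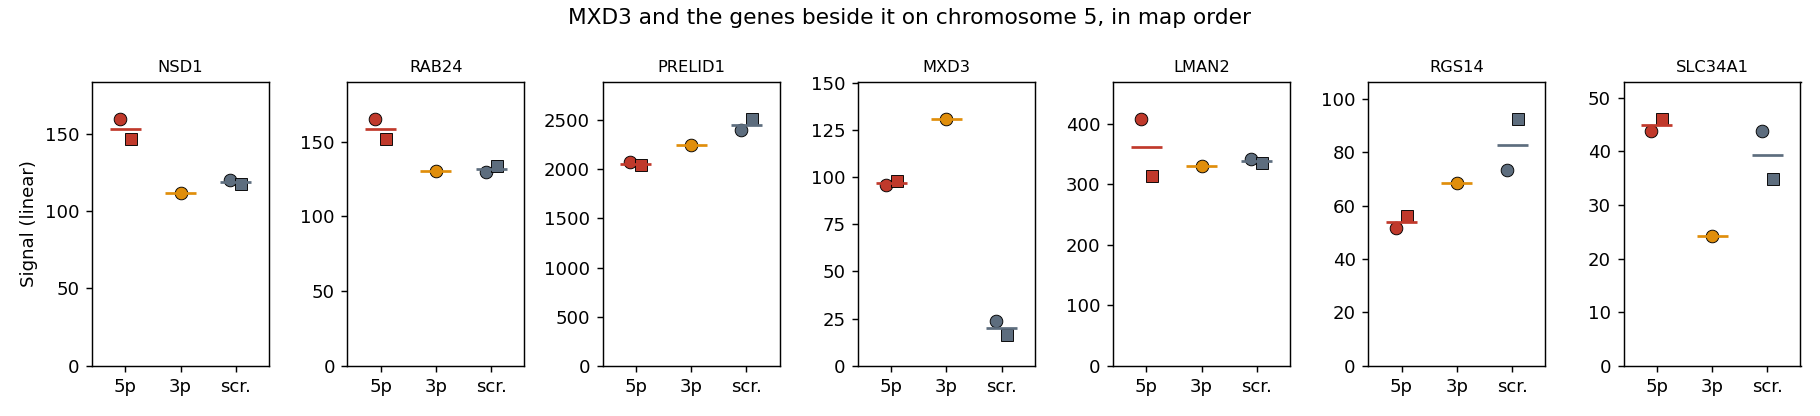
Signal on linear axes from 0 of MXD3 and the 3 nearest genes with a probe set on each side, in map order, with circles for first arrays, squares for repeats, bars for group means and groups from left to right miR-483-5p, miR-483-3p and scrambled control. MXD3 is the gene with all mimic arrays (95.6 to 130.7) far above both controls (16.4 and 23.6), while PRELID1 beside it is lower with the mimics.

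The genes whose pattern was nearest to that of MXD3 were PALM3, TTLL7, MAMDC4, LOC286359 and KIFC1. Nearness was the root mean square difference over the 5 arrays between each gene's log2 deviations from its own control mean and those of MXD3. It was 0.28 to 0.38 for these 5 genes and had a median of 1.13 over the other 14590 genes tested. KIFC1, a spindle motor gene, had signals of 508.9 and 507.2 with miR-483-5p and 403.8 with miR-483-3p, against 164.6 and 230.9 in the control. PALM3, a paralemmin gene, had 213.4 and 198.4 with miR-483-5p and 224.9 with miR-483-3p, against 83.8 and 81.8 in the control. TTLL7, a tubulin ligase gene, had 56.7 and 75.7 with miR-483-5p and 54.2 with miR-483-3p, against 9.9 and 10.9 in the control, whereas 2 further, dimmer probe sets overlapped between miR-483-5p and control. PALM3 and KIFC1 were the bright ones of the 5, and the control signals of the other 3 genes, at 9.6 to 19.9, were under the filter like those of MXD3.

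The other MAX-binding repressors did not follow MXD3. MXD4, a repressor of differentiating cells, has 3 probe sets, each listed for MXD4 together with the microRNA gene MIR4800, which shares its locus, so the values cannot be given to MXD4 alone. Of the 3, 212347_x_at had 93.5 and 56.9 with miR-483-5p and 71.2 with miR-483-3p, against 113.4 and 116.9 in the control. Probe set 212346_s_at had 45.5 and 64.9 with miR-483-5p and 97.7 with miR-483-3p, against 81.7 and 109.4 in the control. Probe set 210778_s_at had 51.2 and 49.9 with miR-483-5p and 75.5 with miR-483-3p, against 68.7 and 56.8 in the control. In all 3 probe sets both miR-483-5p arrays were below both control arrays, by 0.48, 0.55 and 0.20 on the log2 scale (SE 0.20, 0.19 and 0.15 when every probe set is fitted on its own). The miR-483-3p array was below, between and above the controls in turn, so with miR-483-3p the probe sets did not share a direction.

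MXD1, the founding MXD gene, was dim. Its brightest probe set, 226275_at, had 48.0 and 28.2 with miR-483-5p and 41.8 with miR-483-3p, against 47.6 and 36 in the control, and the groups overlapped. A second probe set, 228846_at, had 25.4 and 33.1 with miR-483-5p and 40.8 with miR-483-3p, against 42.8 and 44.5 in the control, a log2 difference of -0.31 for miR-483-5p. The third, 206877_at, was under the filter, at 2.2 to 12.7 on all arrays.

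MXI1, a repressor and reported antagonist of MYC, had a single probe set with signals of 515.6 and 568.8 with miR-483-5p and 455.8 with miR-483-3p, against 589.8 and 557.6 in the control. The miR-483-5p arrays overlapped the controls, though with median centring both lay below both controls, at a log2 difference of -0.043. The miR-483-3p array lay under all others, with a log2 difference from the control of -0.31 (SE 0.17).

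MNT, a repressor present in both resting and growing cells, separated first arrays from repeats within the pairs rather than mimic from control. Its brighter probe set, 204206_at, had 706.7 in the first miR-483-5p array and 422.3 in its repeat, 464.1 with miR-483-3p, and 734.8 in the first control array and 409.0 in its repeat. The log2 difference was -0.0055 (SE 0.32) for miR-483-5p and ran from -0.40 to 0.39 as single arrays were left out. For miR-483-3p it was -0.23 (SE 0.39), 0.17 if the first control array is left out and -0.63 if its repeat is. With first arrays and repeats as a block, the miR-483-3p difference was -0.60. That block counts the miR-483-3p array as a first array, although its 464.1 lay nearer the repeats. The dimmer probe set, 236749_at, had 41.3 and 27.6 with miR-483-5p and 64.5 with miR-483-3p, against 56.2 and 55.7 in the control. There the 2 arms lay on opposite sides of the control arrays.

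MGA, a MAX partner that also carries a T-box DNA-binding domain, gave different answers from different probe sets. The brightest, 212945_s_at, had 213.2 and 246.5 with miR-483-5p and 201.5 with miR-483-3p, against 176.0 and 155.1 in the control, and all mimic arrays were above both controls. Its log2 differences were 0.41 (SE 0.15) and 0.24 (SE 0.18). Probe set 230848_s_at went the other way, with 64.8 and 41.6 with miR-483-5p and 39.2 with miR-483-3p, against 78.0 and 73.7 in the control. Probe set 235409_at had 139.1 and 124.5 with miR-483-5p, 80.3 with miR-483-3p, against 125.7 and 111.4 in the control, where miR-483-3p alone stood apart. The fourth probe set was under the filter. Averaged over probe sets the MGA difference was 0.12 for miR-483-5p and -0.13 for miR-483-3p.

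**Figure D3:**
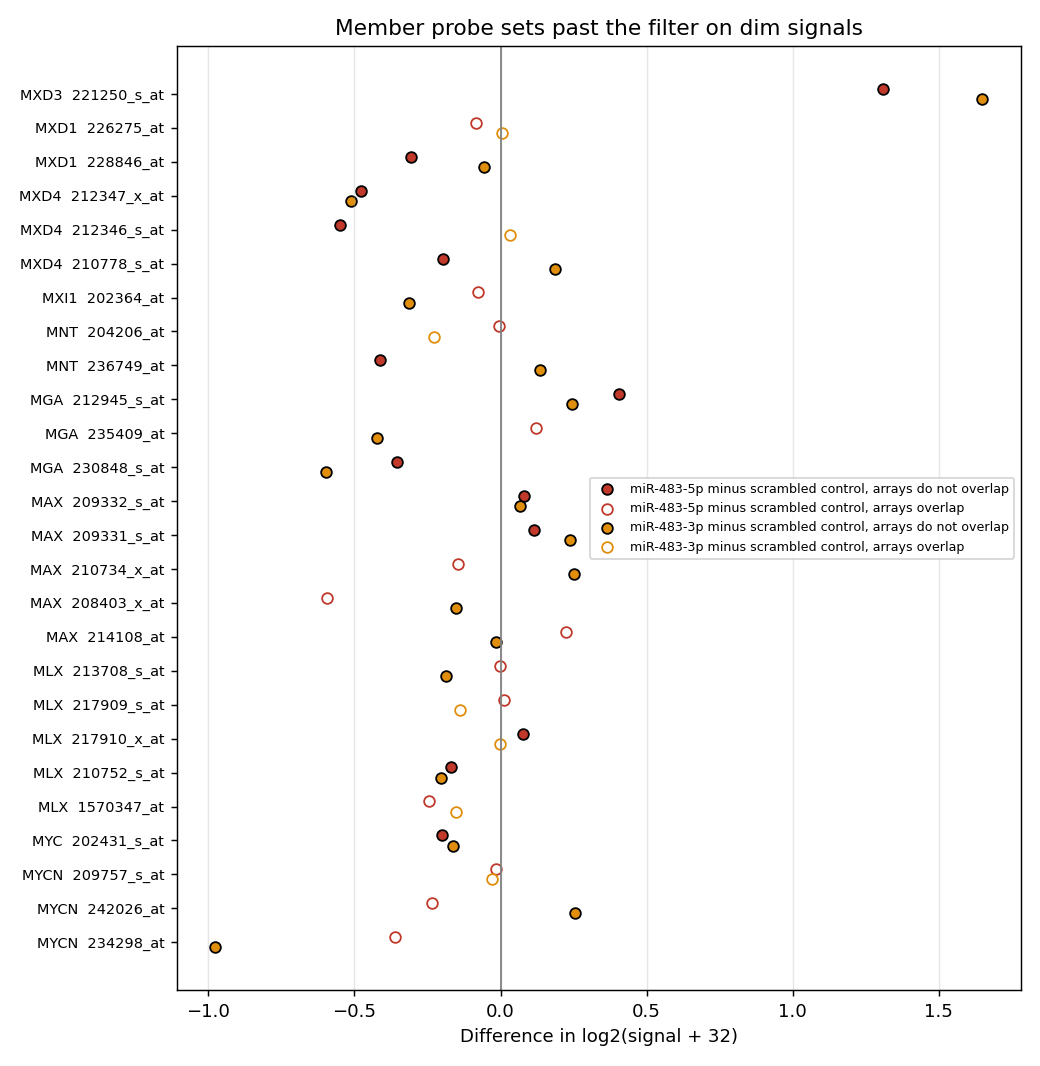
Difference in log2(signal + 32) from the scrambled control for the 26 probe sets of network genes past the filter, miR-483-5p in red and miR-483-3p in orange, filled where the arrays of mimic and control do not overlap. MXD3, at 1.31 and 1.65, stands apart from the other 25 probe sets, which lie between -0.98 and 0.41, and the probe sets of MGA and MAX fall on both sides of 0.

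The common partner MAX differed little from the control in its bright probe sets. Probe set 209332_s_at had 984.7 and 931.6 with miR-483-5p and 947.5 with miR-483-3p, against 920.2 and 887.0 in the control, and 209331_s_at had 444.6 and 495.9 with miR-483-5p and 513.7 with miR-483-3p, against 431.7 and 430.3 in the control. In both of them every mimic array was above both controls, by 0.08 (SE 0.15) and 0.12 (SE 0.15) on average for miR-483-5p and by 0.07 (SE 0.18) and 0.24 (SE 0.18) for miR-483-3p when every probe set is fitted on its own. Probe set 208403_x_at had 43.4 in the first miR-483-5p array and 136.5 in its repeat, 121.0 with miR-483-3p, against 143.9 and 132.4 in the control, so its log2 difference of -0.59 came from 1 array. Probe set 210734_x_at had 222.7 and 314.4 with miR-483-5p, 359.6 with miR-483-3p, against 262.7 and 334.6 in the control, and 214108_at was at 28.2 to 50.8. In Affymetrix naming, _s_at probe sets match several transcripts and _x_at probe sets may also bind unrelated ones.

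MLX, the partner shared with the glucose-sensing factors, did not separate miR-483-5p from control in its brightest probe set. Its brightest probe set, 213708_s_at, had 506.4 and 521.2 with miR-483-5p and 447.8 with miR-483-3p, against 476.7 and 554.8 in the control. The log2 difference was -0.0016 (SE 0.15) for miR-483-5p and -0.19 (SE 0.18) for miR-483-3p. Across the 5 MLX probe sets past the filter the differences ran from -0.25 to 0.08 for miR-483-5p and from -0.20 to -0.00070 for miR-483-3p. With miR-483-5p, 217910_x_at had 411.2 and 377, above the control's 369.7 and 373.1, though it overlapped with median centring. Probe set 210752_s_at had 70.9 and 89.2 with miR-483-5p, below the control's 94.2 and 93, and the others past the filter overlapped.

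MYC itself was bright and lower by a small amount with both arms. Its probe set, 202431_s_at, had 2321 and 2467 with miR-483-5p and 2457 with miR-483-3p, against 2673 and 2833 in the control, and all mimic arrays were below both controls. The log2 differences were -0.20 (SE 0.14) for miR-483-5p, somewhat beyond 1 SE, and -0.16 (SE 0.17) for miR-483-3p, within 1 SE. Both differences remained below 0 under each alternative run. MYCN, the paralogue best known from neuroblastoma, had 107.7 and 119.1 with miR-483-5p and 112.1 with miR-483-3p in its brightest probe set, against 120.1 and 109.9 in the control, where the groups overlapped. Of the other 9 MYCN probe sets 7 were under the filter, and 234298_at ranged from 7 to 78.5 within the miR-483-5p pair alone. With miR-483-3p it had 10.9, against 43.5 and 62.4 in the control, a log2 difference of -0.98. Probe set 242026_at had 45.9 and 29.4 with miR-483-5p and 65.1 with miR-483-3p, against 59.2 and 40.5 in the control.

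Counted over the 26 probe sets past the filter, the miR-483-5p arrays lay above both controls in 5 and below both in 8. The miR-483-3p array lay above both controls in 8 and below both in 11. Among the 14591 genes tested, arrays did not overlap in 20.3% higher and 22.2% lower for miR-483-5p, and in 33.4% higher and 35.4% lower for miR-483-3p. Nothing is read from these counts, since the comparisons chose the network and probe sets of 1 gene share their transcripts.

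The genes that work with the network were taken from 9 lists and tested in a fit over all 14591 genes. With limma, 0 genes (0%) passed at an adjusted p under 0.05 in either comparison with the control or between the arms, so no listed gene did. At an unadjusted p under 0.05, 5.30% of genes were higher and 5.41% lower with miR-483-5p, and 2.51% were higher and 4.05% lower with miR-483-3p. Means were higher for 48.5% and lower for 51.5% of all genes with miR-483-5p, and for 49.8% and 50.2% with miR-483-3p. The median log2 difference of all genes was -0.0085 for miR-483-5p and -0.0013 for miR-483-3p.

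The SIN3 and histone deacetylase complex, which the MXD proteins bring to DNA, had 14 of 17 listed subunits measured. With miR-483-5p, 12 of the 14 had a higher mean, 7 had both arrays above both controls (20.3% of all genes did), 1 lay below, and the median was 0.17, or 0.07 with the mean of the probe sets of a gene. At an unadjusted p under 0.05, 3 were higher and none was lower. The scaffold gene SIN3A had 407.1 and 441.9 with miR-483-5p and 410.3 with miR-483-3p, against 327.8 and 306.9 in the control, a log2 difference of 0.39 for miR-483-5p (limma adjusted p = 0.417). Its 2 next probe sets past the filter, where the groups overlapped, gave 0.36 and 0.19, and one under the filter gave -0.36.

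SAP30, another subunit, had 2194 and 2102 with miR-483-5p and 1759 with miR-483-3p, against 1632 and 1634 in the control, a log2 difference of 0.39 for miR-483-5p (limma adjusted p = 0.410). Its other 3 probe sets gave 0.26 to 0.43 for miR-483-5p. SUDS3 had 484.9 and 520.6 with miR-483-5p and 478.9 with miR-483-3p, against 368.1 and 414.9 in the control, and its second probe set gave a log2 difference of 0.41 beside the first one's 0.34. ING2, a subunit that reads methylated histone H3, was higher by 0.45 in its brighter probe set and lower by 0.33 in its dimmer one. The deacetylase gene HDAC1 differed by 0.08 and overlapped the controls. With miR-483-3p, 9 of 14 subunits had a higher mean and the list median was 0.12.

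Among MLX partners and their targets, MLXIP and TXNIP had low values with miR-483-5p. Of 6 genes listed 4 were measured, with a median of -0.31 for miR-483-5p and -0.17 for miR-483-3p. With no filter, which adds ARRDC4 and MLXIPL, the medians were -0.06 and 0.015, and with the mean of the probe sets of a gene -0.54 and -0.21. For miR-483-5p, leaving out the first mimic array gave a median of -0.19 and leaving out its repeat -0.49. For miR-483-3p, leaving out the first control array gave -0.08 and leaving out its repeat -0.31. MLXIP, known as MondoA, dimerises with MLX and senses glucose 6-phosphate. Its probe set 202519_at had 143.6 and 160.8 with miR-483-5p and 198.5 with miR-483-3p, against 295.9 and 218.0 in the control, a log2 difference of -0.64 (SE 0.17) for miR-483-5p (limma adjusted p = 0.344).

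MLXIP probe set 225157_at had 158.1 and 128.3 with miR-483-5p and 201.2 with miR-483-3p, against 272.5 and 242.8 in the control, and 211789_s_at had 5.6 and 27.6 with miR-483-5p and 33.6 with miR-483-3p, against 84.2 and 60.5. In these 3 probe sets both miR-483-5p arrays were the lowest and the miR-483-3p array lay between them and the controls. The fourth, 1554886_a_at, overlapped for miR-483-5p and was higher by 0.44 with miR-483-3p.

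TXNIP, a known MLXIP and MLX target that restrains glucose uptake, had 110.7 and 140.3 with miR-483-5p and 180.6 with miR-483-3p, against 180.4 and 187.4 in the control. Its log2 difference for miR-483-5p was -0.46 (limma adjusted p = 0.404), and its other probe sets gave -0.50 and -0.66, each with both arrays below both controls. For miR-483-3p the 3 probe sets gave -0.02, -0.44 and -0.18. ARRDC4, a paralogue of TXNIP with the same regulation, and MLXIPL were under the filter. ARRDC4 had 20.2 and 36.1 with miR-483-5p and 28.3 with miR-483-3p, against 25.2 and 27.1 in the control, with overlap. KLF10, a repressor gene under the same control, and the pyruvate kinase gene PKLR overlapped for miR-483-5p, at log2 differences of 0.05 and -0.16.

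**Figure D4:**
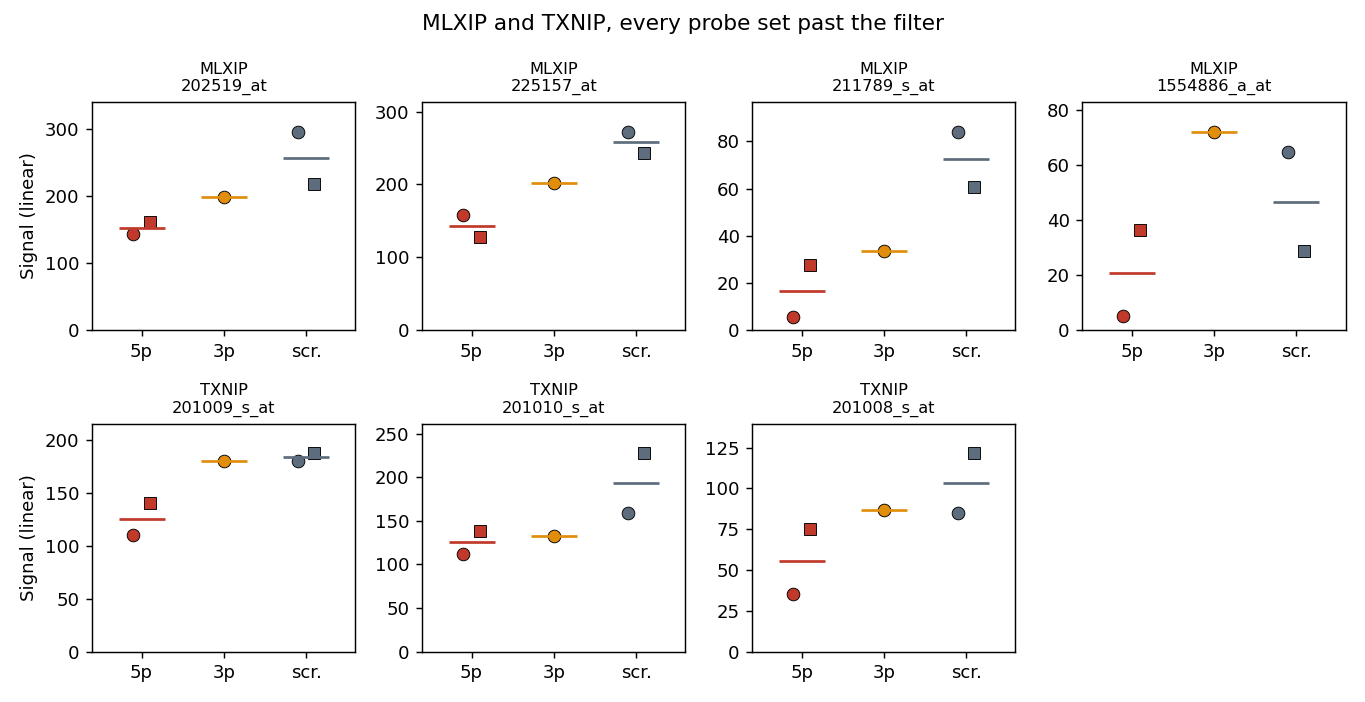
Signal on linear axes from 0 for every probe set of MLXIP (top) and TXNIP (bottom) past the filter, with circles for first arrays, squares for repeats, bars for group means and groups from left to right miR-483-5p, miR-483-3p and scrambled control. Both miR-483-5p arrays lie below both controls in 6 of the 7 panels, the exception being the dim 1554886_a_at. The panels repeat MLXIP and TXNIP and are not separate genes, and 22.2% of all genes lay below both controls.

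Genes that MYC activates showed no common direction against the control. Of 24 nucleolar genes measured (29 listed), 10 had a higher and 14 a lower mean under miR-483-5p (median -0.03), and 16 were higher and 8 lower under miR-483-3p, where the median was 0.08. Leaving out the first mimic array gave -0.0012 for miR-483-5p, leaving out its repeat -0.05, and median centring 0.0041. For miR-483-3p, leaving out the first control array gave 0.04. None had an unadjusted p under 0.05 in either comparison with the control. Between the arms, as miR-483-5p minus miR-483-3p, the nucleolar median was -0.12, against 0.0010 for all genes, and it rests on 1 miR-483-3p array. With the lowest p for miR-483-5p, MRTO4, IMP4 and POLR1A, which serve ribosome assembly and ribosomal RNA synthesis, were at -0.36, -0.39 and -0.37, and with the lowest for miR-483-3p, RRS1, NOP2 and WDR43, also ribosome assembly genes, were at 0.33, 0.31 and 0.28. A second MRTO4 probe set was at 0.29 for miR-483-5p, with overlap, and the mean of the MRTO4 probe sets at -0.033. When single arrays were left out, IMP4 ran from -0.58 to -0.20 and POLR1A from -0.61 to -0.12 for miR-483-5p. Nucleolin, NCL, had 6371 and 6579 with miR-483-5p and 7029 with miR-483-3p, against 5948 and 7039 in the control. Of 31 growth and metabolism genes measured (34 listed), 19 were higher and 12 lower with miR-483-5p, and the median was 0.06. Leaving out the first control array gave -0.05, the second 0.18, and the second miR-483-5p array 0.0023. The first miR-483-5p array left out gave 0.03. For miR-483-3p, where 20 were higher and the median was 0.05, leaving out the first control array gave -0.06 and the second 0.20, and first arrays and repeats as a block gave 0.15. The phosphatase gene CDC25A, an activator of cell cycle kinases, had 265.0 and 205.4 with miR-483-5p and 181.6 with miR-483-3p, against 156.0 and 120.6 in the control (log2 difference 0.65 for miR-483-5p, limma adjusted p = 0.344), but its other probe sets gave 0.26 and -0.24. The amino acid transporter gene SLC7A5 was lower by 0.53 on the log2 scale, with 503.0 and 418.5 against 713.2 and 646.6 in the control (limma adjusted p = 0.360). The chromatin-bound exchange factor gene RCC1 had 1249 and 1309 with miR-483-5p and 1408 with miR-483-3p, against 836.1 and 1119 in the control. For miR-483-3p, RCC1, the nucleotide synthesis gene PRPS2 and the telomerase gene TERT were at 0.53, 0.41 and 0.65. TERT was dim, at 39.5 to 89.2 over the arrays, and its second probe set, under the filter, was at -0.017 for miR-483-3p.

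Among genes that MYC represses, 10 of 13 measured had a higher mean with miR-483-5p (48.5% of all genes did), and the median was 0.17. Both arrays were above both controls in 6 (20.3% of all genes) and below both in 1 (22.2% of all genes). Leaving out the first mimic array gave 0.11 and leaving out its repeat 0.25. The stress gene GADD45A had 282.4 and 276.0 with miR-483-5p and 183.6 with miR-483-3p, against 180.7 and 151.8 in the control, a log2 difference of 0.65 for miR-483-5p (limma adjusted p = 0.332) and 0.12 for miR-483-3p. The cell cycle inhibitor gene CDKN1C had 204.1 and 200.9 with miR-483-5p and 195.2 with miR-483-3p, against 260.4 and 257.7 in the control. This probe set thus lay on the other side. The other CDKN1C probe sets past the filter overlapped for miR-483-5p, at -0.11, -0.15 and -0.08, and were at 0.28, -0.35 and -0.02 for miR-483-3p. GADD45B, a paralogue of GADD45A, was at 0.31. With miR-483-3p, 8 of 13 were higher and the median was 0.05, -0.0087 when the first control array is left out and 0.10 when the second is. The growth factor receptor gene PDGFRB was at -0.25 for miR-483-3p, and the differentiation factor gene CEBPA at 0.48. CEBPA had 31.8 and 25.1 with miR-483-5p and 44.9 with miR-483-3p, against 27.2 and 19.1 in the control. These signals are near the filter's 27.2, and the gene passed largely through the miR-483-3p array, so nothing is read from its difference.

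**Figure D5:**
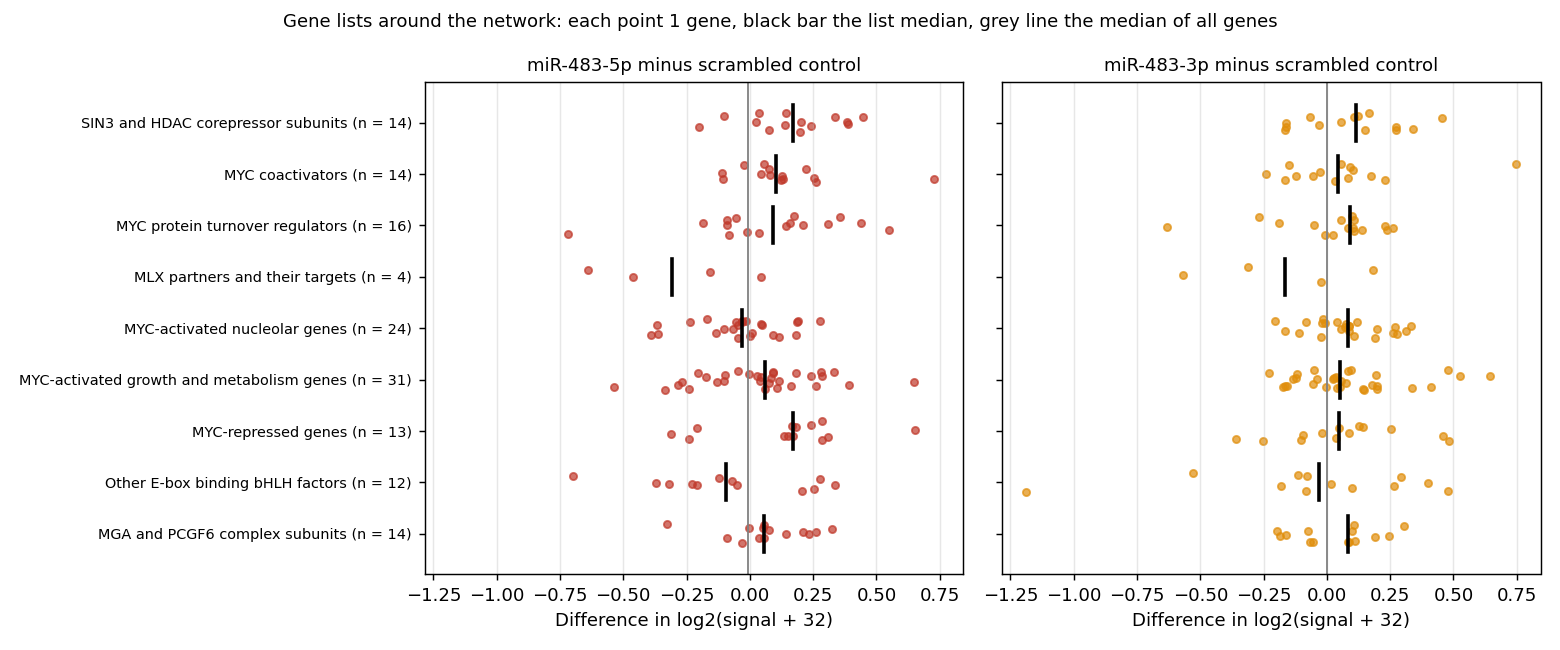
Difference in log2(signal + 32) from the scrambled control for each measured gene of the 9 lists, miR-483-5p left and miR-483-3p right on the same axis, with the list median as a black bar and the median of all genes as a grey line. For miR-483-5p the list medians run from -0.31 for MLX partners and targets to 0.17 for SIN3 and histone deacetylase subunits.

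The 14 coactivators of MYC measured had a median of 0.10 with miR-483-5p, and 0.045 with miR-483-3p. For miR-483-5p it was 0.02 and 0.0068 when the first mimic array or the second control array was left out, and 0.20 when either of the others was. For miR-483-3p it was -0.07 when the second control array was left out, -0.021 with the mean of the probe sets of a gene and -0.05 with first arrays and repeats as a block. CCNT1, the cyclin of the elongation kinase that MYC recruits, had 861.1 and 738.6 with miR-483-5p and 808.7 with miR-483-3p, against 483.9 and 454.4 in the control. All mimic arrays were above both controls, by 0.73 (limma adjusted p = 0.332) and 0.75 (limma adjusted p = 0.535) on the log2 scale, whereas a second probe set gave 0.17 and -0.25. The scaffold gene TRRAP and the acetyltransferase gene KAT5 were at 0.25 and 0.26 for miR-483-5p, with overlap, and KAT5 and the chromatin reader gene BPTF were at 0.23 and -0.24 for miR-483-3p. The 16 regulators of MYC protein turnover measured had a median of 0.09 in both comparisons, and for miR-483-3p it was 0.03 when the first control array was left out. FBXO32, a ubiquitin ligase subunit, had 19.5 and 36.6 with miR-483-5p and 31.1 with miR-483-3p, against 64.0 and 67.4 in the control (log2 difference -0.72 for miR-483-5p, limma adjusted p = 0.332), and its other 6 probe sets were under the filter. The deubiquitinase gene USP37 had 257.1 and 219.4 with miR-483-5p and 206.7 with miR-483-3p, against 166.9 and 167 in the control. PPP2R5A, a subunit of the phosphatase that acts on MYC, had 197.3 and 165.6 with miR-483-5p and 128 with miR-483-3p, against 91.7 and 138.7 in the control, so miR-483-5p alone lay above both controls. Its log2 difference for miR-483-3p, 0.14, was -0.093 without the first control array. TRPC4AP, a ubiquitin ligase adaptor gene, was at -0.27 for miR-483-3p.

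Other E-box binding factors (12 measured) had a median of -0.10 with miR-483-5p and -0.03 with miR-483-3p. For miR-483-5p it was -0.0085 when the second mimic array was left out and 0.21 with a filter at the 60th percentile. For miR-483-3p it turned to 0.0066 with median centring, 0.018 with that filter and 0.027 with the mean of the probe sets of a gene. MITF, the melanocyte factor, had 11.7 and 64.2 with miR-483-5p and 14.2 with miR-483-3p, against 67.9 and 78.9 in the control, a wide spread within the miR-483-5p pair. Its log2 differences were -0.70 for miR-483-5p (limma adjusted p = 0.518) and -1.19 for miR-483-3p (limma adjusted p = 0.682). TFEB, a lysosomal regulator, and USF2 were at -0.37 and -0.32 for miR-483-5p, and TFE3 and BHLHE41 were at 0.40 and -0.53 for miR-483-3p. Subunits of the complex that MGA forms with PCGF6 (14 measured) had medians of 0.06 for miR-483-5p and 0.08 for miR-483-3p. The first was 0.13 without the second mimic array and 0.10 without the second control array, and the other was 0.012 without the second control array. RING1, its ubiquitin ligase, was at -0.33 for miR-483-5p and 0.25 for miR-483-3p. CBX1, EHMT2 and TFDP1 were at 0.32, 0.23 and 0.21 for miR-483-5p, and L3MBTL2 was at -0.19 for miR-483-3p. At an unadjusted p under 0.05, TFEB was lower for miR-483-5p and MITF for miR-483-3p, no E-box factor was higher, and no subunit of the MGA complex was on either side.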

How the data were processed

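The values, as deposited, were linear intensity readings of HG-U133 Plus 2 arrays, with 54675 probe sets on each of the 5 arrays. GCOS and Partek are named per the submitters' processing notes; how signals were summarised is not given in these sources. The intensity columns deposited by the authors share a trimmed mean of 150, and detection calls were not used here. Groups came from the treatment labels.

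Each gene was represented by the probe set, listed for it alone, with the highest mean log2(signal + 32), and the 62 control probe sets were left out. Genes under the 40th percentile were left out, which left 14591. Differences were fitted with limma 3.58.1 in R 4.3.3, a mean per group over all 5 arrays, two-sided, with Benjamini-Hochberg adjustment at 0.05. The fit has 2 residual degrees of freedom, and the single miR-483-3p array is assumed to vary like the others. The fit was also run in 20 simulations of miR-483-5p against control on 14591 genes, with 200 changed genes. Of simulated 2-fold changes 77% were called and of 4-fold ones 99.2%, beside 9.5 false calls per simulation. These rates hold for that many changed genes, since the adjustment depends on how many genes change. In the data 0 genes were called, so the rates do not show that 2-fold changes are absent. The members and lists were chosen with earlier results of these data known. All member probe sets are counted, and the signals of some MGA, MLX and MYCN probe sets are not given. From each list the genes named include the 3 with the lowest p in each comparison with the control; the text gives some only in the comparison that named them. HDAC1, NCL and ARRDC4 were named after their values were seen. RefSeq tables of GRCh38.p14 gave symbols, gene order and promoters, and figures used matplotlib 3.10.9.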

Additional observations from a re-analysis of the deposited data

How the results depend on the processing

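MXD3 stayed above the control under each alternative run. Its log2 difference for miR-483-5p was 2.24 with a pseudocount of 1 and 0.71 with 100, against 1.31 with 32, and ran from 1.21 to 1.41 without each paired array. For miR-483-3p it was 2.67 and 0.94, against 1.65, and 1.55 to 1.75. Between the arms it was -0.34, -0.23 with a pseudocount of 100 and -0.35 to -0.33 without each array. The count of 0 genes called for miR-483-5p was 37 with median centring, 33 with a pseudocount of 100, 39 with a variance prior that follows intensity and 1 with a filter at the 60th percentile. For miR-483-3p it was 2, 1 and 1 under the first 3 of these, and between the arms it was 7 with median centring. The cause was not tested. At an unadjusted p under 0.05 limma gave 1563 genes for miR-483-5p, 957 for miR-483-3p and 970 between the arms. CCNT1 was called for miR-483-5p with the variance prior that follows intensity (limma adjusted p = 0.0356). Some differences of genes named from the lists changed sign. With median centring for miR-483-3p against control, the sign turned for TXNIP at 0.015. With quantile normalization between the arms, the sign turned for ING2 at 0.0021. With the mean of the probe sets of a gene for miR-483-5p against control, the sign turned for BHLHE41 at 0.11. With the mean of the probe sets of a gene for miR-483-3p against control, the sign turned for TRRAP at -0.025, MRTO4 at 0.21, USF2 at -0.12, L3MBTL2 at 0.095 and EHMT2 at 0.018. With the mean of the probe sets of a gene between the arms, the sign turned for CCNT1 at 0.20, TERT at 0.036, CDKN1C at -0.054, TFEB at 0.00055, L3MBTL2 at -0.12 and TFDP1 at 0.044. With the replicate block for miR-483-3p against control, the sign turned for TRRAP at -0.15, TXNIP at 0.058, KLF10 at -0.019, MRTO4 at 0.017 and GADD45B at -0.046. With the replicate block between the arms, the sign turned for ING2 at 0.074, RUVBL1 at 0.025, CCNT1 at 0.055, KLF10 at 0.064 and WDR43 at 0.037. Without single arrays, values for miR-483-5p against control that changed sign ran for KAT5 from -0.013 to 0.53, BPTF from -0.13 to 0.21, TRPC4AP from -0.11 to 0.0069, KLF10 from -0.25 to 0.34, PKLR from -0.39 to 0.071, NOP2 from -0.081 to 0.27, RRS1 from -0.25 to 0.16, TERT from -0.085 to 0.57 and BHLHE41 from -0.37 to 0.27. Without single arrays, values for miR-483-3p against control that changed sign ran for TRRAP from -0.085 to 0.15, PPP2R5A from -0.093 to 0.37, TXNIP from -0.045 to 0.0014, KLF10 from -0.12 to 0.48, MRTO4 from -0.17 to 0.0042, GADD45B from -0.030 to 0.12, USF2 from -0.098 to 0.13 and EHMT2 from -0.16 to 0.011. Without single arrays, values between the arms that changed sign ran for SIN3A from -0.010 to 0.10, ING2 from -0.13 to 0.11, TRRAP from -0.028 to 0.47, KAT5 from -0.24 to 0.30, CCNT1 from -0.13 to 0.087, FBXO32 from -0.29 to 0.12, WDR43 from -0.17 to 0.0043, POLR1A from -0.41 to 0.087, TFE3 from -0.32 to 0.078, MITF from -0.080 to 1.06 and TFDP1 from -0.20 to 0.0070. Of the list medians, signs turned for MLX partners and targets (miR-483-3p, no filter), nucleolar genes (miR-483-5p, median centring), MYC coactivators (miR-483-3p, 3 alternatives), other E-box factors (miR-483-5p, 1 alternative, and miR-483-3p, 3) and, without the first control array, growth and metabolism genes (both arms) and MYC-repressed genes (miR-483-3p). Median centring moved all differences from the control by 0.03 to 0.04, which turned the signs of MYCN, MNT and MLX for miR-483-5p and of MYCN for miR-483-3p, all near 0. MAX turned to -0.063 for miR-483-5p with the mean of its probe sets. As single arrays were left out, MXD1 ran from -0.29 to 0.12, MYCN from -0.073 to 0.041 and MLX from -0.10 to 0.10 for miR-483-5p. For miR-483-3p, MXD1 ran from -0.11 to 0.12 and MYCN from -0.078 to 0.022. The first arrays and repeats share no number in the labels, and with them as a replicate block 0 genes were called in each comparison.

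The small number of arrays and the lack of detection calls limit the dim probe sets most: 10 of the 36 for the network lay under the filter, and the MXD3 controls did as well.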
